A study of Mus musculus with 22 samples.

Results

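The genes described here encode the molecular motors that move cargo along the cytoskeleton: kinesins, cytoplasmic dynein with its partner complex dynactin, and myosins. Members were chosen by gene symbol alone, as every symbol in both deposited FPKM tables that begins as a kinesin (Kif, Kifc), a kinesin light chain or kinesin-associated protein (Klc, Kifap3), a dynein subunit (Dync, Dynll), a dynactin subunit (Dctn) or a numbered myosin (Myo). This gave 87 of the 29848 genes: 42 kinesin heavy chains, 5 kinesin light chains and adaptors, 7 cytoplasmic dynein subunits, the 2 light chains of the LC8 type, 6 dynactin subunits and 25 myosins. The muscle-type heavy chains, whose symbols begin with Myh, are not members.

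Kinesins walk along microtubules, most of them toward the plus end, and carry vesicles, mitochondria and RNA granules, whereas dynein walks toward the minus end and needs dynactin for long runs. Pyramidal cell dendrites hold microtubules of both orientations, so both motors can carry cargo into them. Myosins move along actin, and in dendrites they bring receptors and membrane the last distance into spines.

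The study asked which mRNAs sit on ribosomes in the dendrites and in the cell bodies of mouse hippocampal CA1 neurons, and how that changes after a new experience. The mice were Camk2a-tTA/tetO-EGFP-L10a double transgenics on the C57BL/6 strain; both transgenes were present in every group. In these animals the Camk2a promoter, active in excitatory forebrain neurons, drives a GFP-tagged ribosomal protein, so RNA pulled down with the anti-GFP antibody HtzGFP-19C8 comes in principle from tagged neurons, and the supernatant holds the unbound RNA of all cells in the dissected layer. There were 11 libraries: immunoprecipitates of the dendrite layer and of the soma layer from home-cage and from fear-conditioned mice, 2 libraries for each of these 4 groups, and 3 supernatants, from the home-cage dendrite, the fear-conditioned dendrite and the fear-conditioned soma. The time after conditioning, the age and sex of the mice and whether libraries came from separate animals or from pools are not given in the labels, so a p-value here measures the spread between these libraries, which may be partly technical.

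Each library name appears in 2 deposited tables, from a paired-end and from a single-end sequencing run. The labels do not say whether the 2 samples of a name are runs of one library. They were treated as such here, and never as replicates. Both tables give 1 FPKM for the coding part of a gene, which also holds the 5′ UTR and the first bases of the 3′ UTR, and 1 for the rest of the 3′ UTR. FPKM is a fragment number divided by model length and by the mapped total of the library. Depth estimated from the spacing of low values was 5.67 to 29.9 M fragments in the paired-end immunoprecipitates and 24.5 to 35.6 M in the paired-end supernatants. In the single-end run it was 0.515 to 4.36 M and 6.98 to 10.7 M. The paired-end coding part is therefore the basis of the tests, and the single-end run is treated as a technical repeat. One gene, Rpsa, took 74.0% of the FPKM of the second home-cage soma immunoprecipitate, and for that reason FPKM were scaled between libraries before testing (factors 0.267 to 2.31). Between 26 and 62 of the 87 members were above 0 in a paired-end immunoprecipitate. Of 11 genes that nearly every cell uses, 5 were listed at 0 in at least 1 immunoprecipitate, so a member at 0 is described here as listed at 0, not as absent. As a check of the labelled cell type, pyramidal neuron markers such as Camk2a and Nrgn summed to 64.2 to 730 FPKM in the dendrite immunoprecipitates and to 5.96 to 279 in the soma immunoprecipitates, with 2 to 10 of the 10 markers above 0 in a library. The dendrite sums were almost all Camk2a, at 63.6 to 706 FPKM, and Nrgn was listed at 0 in 3 of the 4 dendrite immunoprecipitates. Of the 5 markers that could be tested, 2 were on the dendrite side and 3 on the soma side.

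The motor heads of kinesins, myosins and dynein heavy chains share one sequence element, the P-loop (Walker A motif), which holds the phosphates of ATP. Kinesin and myosin symbols name families defined by this head, so its presence there is not independent of the choice by symbol. In the longest coding sequence of each gene in GENCODE M21 (build GRCm38), an in-frame P-loop was found in 41 of 41 matched kinesin heavy chains and in 25 of 25 myosins, in 5 of 7 cytoplasmic dynein genes, and in none of the dynactin, LC8, light chain and Kifap3 genes. Of the 5 dynein genes, Dync1h1 and Dync2h1 are motor heavy chains. Dync1li1, Dync1li2 and Dync2li1 are light intermediate chains, which have no motor head. Of all 21549 protein-coding genes searched in the same way on the coding strand, 4.35% held a P-loop. The runs below are shown because they place the motor head in several of the proteins described here: each is the 24-base P-loop of the coding strand, 5′ to 3′, with the 3 codons for glycine, lysine and threonine or serine in capitals.
Kif5c: gggcagacttcatcaGGAAAAACT
Kif1a: gggcagacgggggccGGCAAGTCC
Kif1b: gggcagactggtgctGGGAAATCC
Kif2a: gggcagactggaagtGGGAAAACT
Kifc2: ggtcagactgggacaGGGAAAACC
Myo5a: ggagagtcaggcgcaGGGAAGACG
Myo6: ggagaatcaggagctGGCAAAACA
Myo9a: ggagagagtggttctGGGAAGACT
The loop begins at codon 86 of 956 in Kif5c and codon 97 in both Kif1a and Kif1b, so the head lies at the start of these cargo-carrying kinesins. In Kif2a, a kinesin that takes microtubules apart instead of walking, it begins at codon 312 of 743. Kifc2 carries it at codon 486 of 792. Kifc1, Kifc2, Kifc3 and Kifc5b were the 4 kinesins with the loop past 50% of the coding sequence, and their family, with the motor at the C-terminal end, is the one known to walk toward the minus end. The myosin heads of Myo5a, Myo6 and Myo9a have it at codons 163, 151 and 239. Apart from Kifc1 and Kifc5b, which share 52.7% of the 50-base windows of the Kifc1 coding sequence, no matched member shared a 50-base stretch of coding sequence with another.

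In the paired-end coding part, 16 of the 87 members were listed at 0 in all 8 immunoprecipitates, and 12 of these also in the 3 supernatants; in the single-end run these counts were 19 and 13. The 16 include Kif12, Kif18a, Kif2b, Kif4b, Kif6, Kif9 and Kifc5b among the kinesins, which include cell-division and ciliary motors, and Myo15b, Myo18b, Myo1a, Myo1f, Myo1h, Myo3a, Myo3b and Myo7b among the myosins, which include motors of hair cells, gut epithelium and blood cells. Of these named genes, Kif18a, Kif6, Kif9, Kifc5b and Myo3b were above 0 in 1 single-end immunoprecipitate each, at no more than 0.560 FPKM. Only 14 members were above 0 in all 8 immunoprecipitates, and 28 reached a mean of 1 FPKM. For 51 members a single library held over 50% of the summed FPKM of the 8 immunoprecipitates. This unevenness was not particular to motors: of all genes with a mean of at least 1 FPKM, 2435 of 3456 had one such library, against 17 of 28 members at that level.

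**Figure D1:**
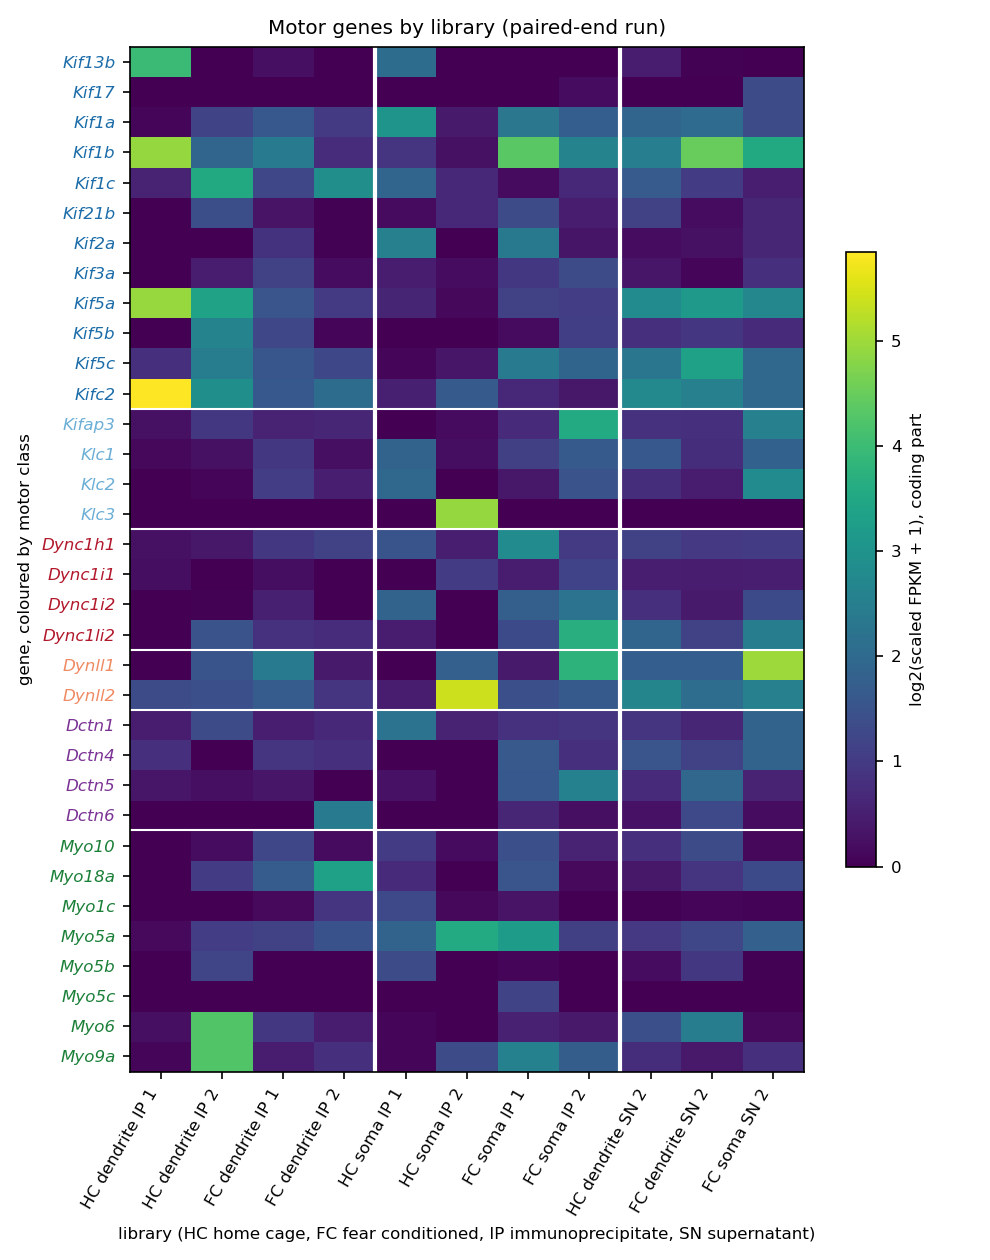
Levels of 34 motor genes (y axis, coloured by class) in the 11 paired-end libraries (x axis), as log2 of scaled FPKM plus 1. Most genes are high in 1 or 2 libraries of a group and low in the other: Klc3 is above 0 in a single library, and Kifc2 is the brightest cell of the plot in the first home-cage dendrite immunoprecipitate.

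In the sentences that follow, the 4 values of a compartment are scaled paired-end FPKM of the coding part in the order home cage 1, home cage 2, fear conditioned 1 and fear conditioned 2. The first question was whether motor mRNAs on tagged ribosomes differed between dendrite and soma. Kifc2 and Kif5a stood highest on the dendrite side, and no motor gene passed the test. By limma with Benjamini-Hochberg adjustment, 0 of the 23 members whose scaled FPKM averaged 1 or more were called (background: 0% of 2928 genes). At an unadjusted p under 0.05 there were 2 of 23 members (background: 4.75% of genes), both on the dendrite side (background on that side: 1.88%). Of the 23, 9 had a log2 difference above 0 (background: 42.6%). The median log2 difference was −0.42 over the members and −0.30 over all genes tested. In bulk RNA like this, fewer cells of a type and less RNA per cell cannot be told apart.

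Kifc2 (chr15:76490339-76498626 in mm9, plus strand) encodes a minus-end kinesin found mainly in neurons. Its values were 49.8, 7.16, 1.99 and 3.21 in the dendrite and 0.373, 1.69, 0.621 and 0.358 in the soma immunoprecipitates. All 4 dendrite libraries thus lay above all 4 soma libraries, the only member of the 23 for which this held (background: 1.71% of genes), although the lowest dendrite value exceeded the highest soma value by a small margin. About 267 to 846 fragments stood behind each dendrite value and 8.4 to 50.7 behind each soma value. The mean was 15.6 ± 22.97 in the dendrite and 0.761 ± 0.633 in the soma (SD, n = 4 each). The log2 difference was 2.33 (SE 0.95, limma adjusted p = 0.65).

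Kif5a (chr10:126662751-126700419, minus strand) encodes a neuron-specific heavy chain of kinesin-1, the motor of vesicles, mitochondria and RNA granules. It stood at 26.2, 10.3, 1.81 and 1.01 in the dendrite and at 0.437, 0.066, 1.36 and 1.33 in the soma immunoprecipitates. In the paired-end coding part both home-cage dendrite libraries were far above the rest, while the fear-conditioned libraries of the 2 compartments overlapped. The means were 9.83 ± 11.7 and 0.797 ± 0.648 (SD, n = 4 each), with a log2 difference of 1.92 (SE 0.86, limma adjusted p = 0.65). Both genes kept their sign in all 16 alternatives tried, with log2 differences of 1.29 to 3.28 for Kifc2 and 1.03 to 2.90 for Kif5a. These changed 1 choice at a time; in the rest of the 3′ UTR of the single-end run, which changes both, the deposited mean of Kifc2 was lower in the dendrite (5.48) than in the soma (6.89).

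The single-end run of the same libraries and the rest of the 3′ UTR did not separate the compartments as cleanly. The deposited single-end FPKM of Kifc2 was 35.1, 28.1, 0.136 and 2.07 in the dendrite and 0, 0, 17.2 and 1.11 in the soma. Here the home-cage libraries were again high in dendrite and listed at 0 in soma, but the first fear-conditioned pair was the other way round. For Kif5a the single-end values were 1.14, 66.5, 3.14 and 16.6 against 0.109, 0.118, 2.88 and 10.1, with overlap among the fear-conditioned libraries. In the rest of the 3′ UTR of the paired-end run, the first home-cage dendrite library was the lowest dendrite library for both genes. Its deposited FPKM was 0.389 for Kifc2, with the other dendrite libraries at 7.11 to 18.0. For Kif5a it was 0.746, with the others at 18.0 to 136.

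**Figure D2:**
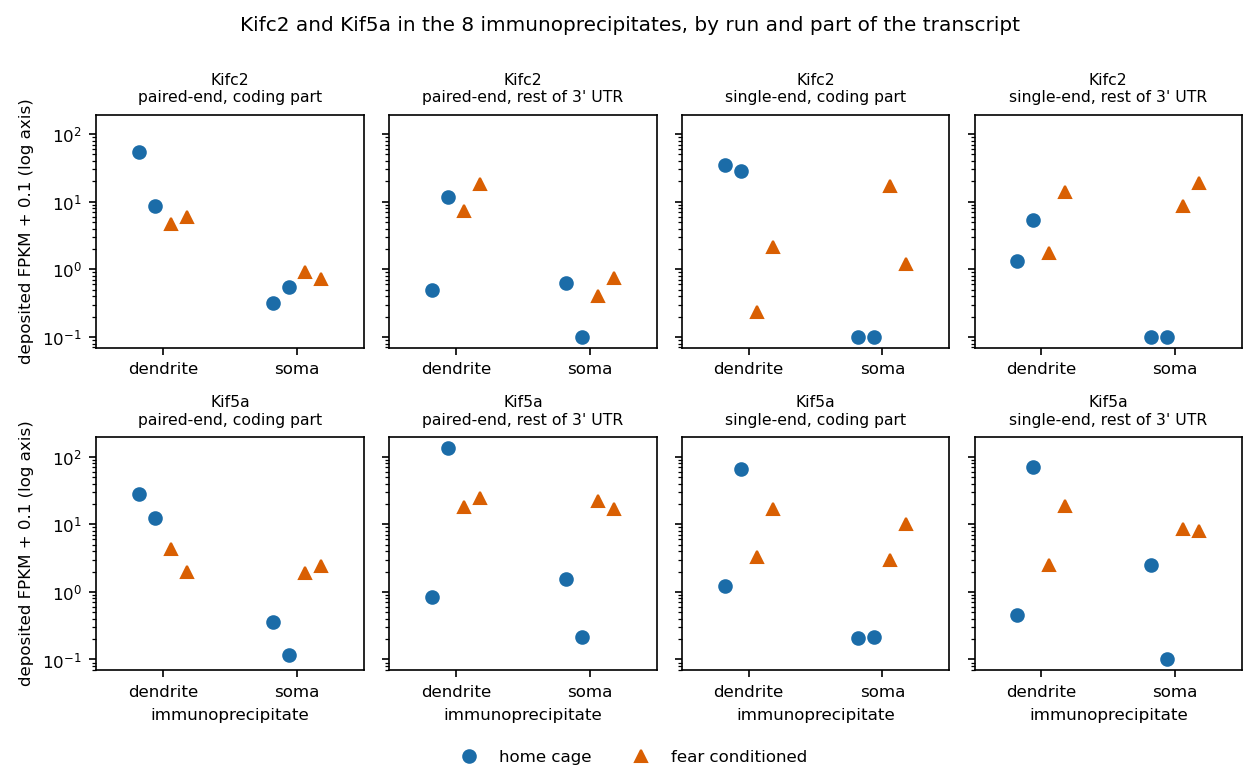
Deposited FPKM plus 0.1 (log axis) of Kifc2 (top) and Kif5a (bottom) in the 4 dendrite and 4 soma immunoprecipitates, for each run and each part of the transcript. The 2 compartments are fully apart only for Kifc2 in the paired-end coding part; in all other panels at least 1 dendrite library lies below a soma library.

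RNA of astrocytes moved with the dendrite layer in the same libraries. All 7 tested astrocyte markers were on the dendrite side, with a median log2 difference of 2.99, and the 10 markers summed to 134 to 438 FPKM in the dendrite against 1.40 to 81.5 in the soma immunoprecipitates. Oligodendrocyte markers summed to 5.86 to 136 and 0.888 to 93.7 FPKM. The part of these cells in the values of Kifc2, Kif5a and other members was not tested.

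**Figure D3:**
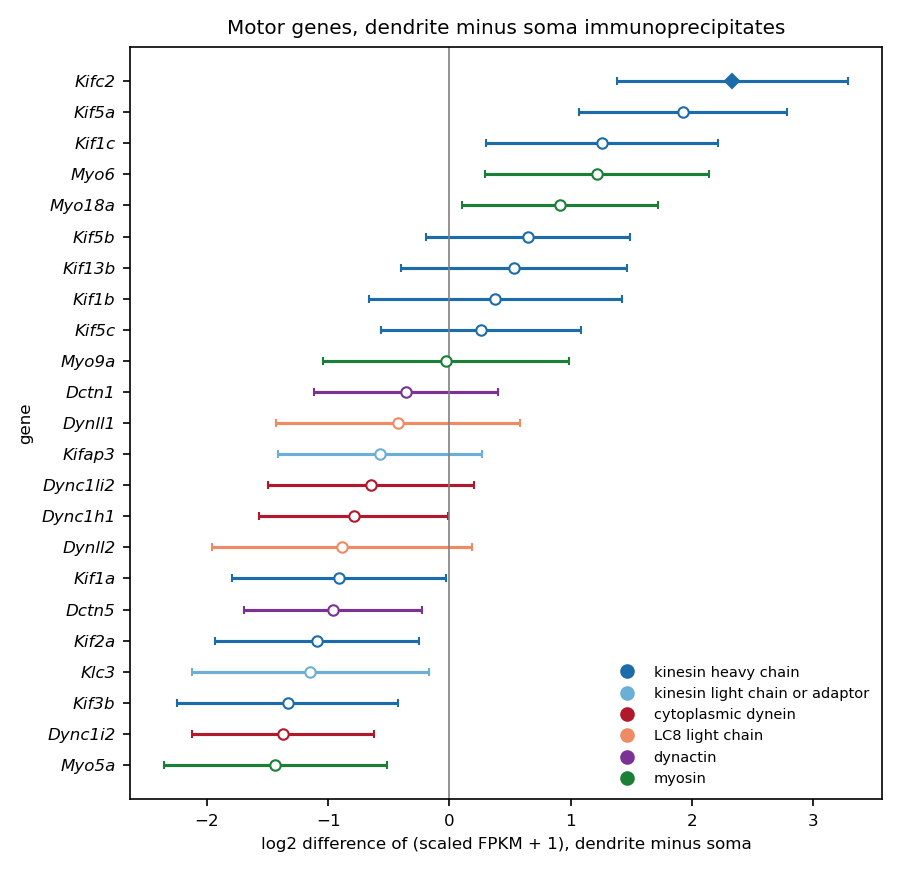
Log2 difference (point) and its SE (bar) of dendrite minus soma immunoprecipitates for the 23 tested motor genes, coloured by class; a filled diamond marks a gene whose libraries did not overlap. Kifc2 at 2.33 and Kif5a at 1.92 lead the dendrite side and Myo5a at −1.43 the soma side, and Kifc2 is the only filled diamond.

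Among the other kinesin-1 heavy chains, Kif5c (chr2:49474834-49630298, plus strand), also a neuronal form, stood at 0.638, 4.94, 1.9 and 1.41 in the dendrite and 0.0694, 0.221, 4.85 and 3.28 in the soma. Its home-cage libraries were higher in dendrite and its fear-conditioned libraries higher in soma. Kif5b, the form present in most tissues, was listed at 0 in 3 libraries and read 5.61 in the second home-cage dendrite library, 1.33 and 0.0634 in the fear-conditioned dendrite, and 0.148 and 1.37 in the fear-conditioned soma. Both Kif5b and Kif5c overlapped between the compartments.

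The kinesin-3 heavy chains carry synaptic vesicle precursors and dense-core vesicles, and Kif1b (chr4:148550430-148681807, minus strand) also has a form for mitochondria. Kif1b stood at 25.8, 3.03, 4.03 and 0.687 in the dendrite and at 0.710, 0.160, 21.4 and 6.24 in the soma. Its highest values were in 1 home-cage dendrite library and in the fear-conditioned soma, and the compartments overlapped. That dendrite library read 0.579 in the single-end run. Kif1a, the axonal and dendritic vesicle motor, read 0.0568, 1.42, 1.96 and 1.01 in the dendrite and 6.05, 0.274, 4.37 and 2.91 in the soma. Kif1c, known for dense-core vesicle and integrin transport, read 0.417, 11.9, 1.30 and 6.50 in the dendrite and 2.32, 0.470, 0.144 and 0.716 in the soma. Kif1a leaned to the soma and Kif1c to the dendrite, neither past the test, and the side of Kif1c turned in the single-end run (log2 difference −0.93). Kif13b, which carries lipid and signalling cargo, was high in the first home-cage library of both layers, at 13.0 in the dendrite and 2.73 in the soma, with the other 6 libraries between 0 and 0.181.

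Kinesin-2 motors serve both cilia and dendritic transport. Kif3a, of the heterotrimeric kinesin-2, read 0, 0.423, 1.14 and 0.143 in the dendrite and 0.302, 0.108, 1.02 and 1.9 in the soma. Kif17, the homodimeric kinesin-2 known for carrying the NMDA receptor subunit NR2B along dendrites, was listed at 0 in 7 of the 8 immunoprecipitates and read 0.170 in the second fear-conditioned soma library. Thus neither motor showed a dendrite side on tagged ribosomes. Kif21b, a slow kinesin that steers microtubule growth and carries neurotransmitter receptors, read 0, 1.83, 0.228 and 0.0202 in the dendrite and 0.108, 0.453, 1.68 and 0.474 in the soma. Kif2a read 0, 0, 0.771 and 0.0247 in the dendrite and 4.11, 0, 4.53 and 0.322 in the soma, where the first library of each group was the high one.

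Kinesin light chains link kinesin-1 heavy chains to cargo, and Kifap3 is the third subunit of kinesin-2. Klc1 read 0.0815, 0.212, 0.886 and 0.176 in the dendrite and 2.22, 0.133, 1.26 and 2.63 in the soma, and Klc2 read 0, 0.0900, 1.03 and 0.399 against 2.5, 0, 0.323 and 2.25. Both leaned to the soma, with overlap between the compartments. Kifap3 (chr1:165709810-165847231, plus strand) read 0.182, 1.02, 0.456 and 0.556 in the dendrite and 0, 0.0943, 0.670 and 13.4 in the soma, so its soma mean rests on 1 library. Klc3 was above 0 in the second home-cage soma library only, at 23.1, with about 154 fragments, and the single-end run of that library gave a deposited FPKM of 15.1.

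Cytoplasmic dynein is built on the heavy chain Dync1h1, with intermediate chains (Dync1i1, Dync1i2) that bind dynactin and light intermediate chains (Dync1li1, Dync1li2) that bind cargo adaptors. Dync1h1 (chr12:111839605-111905154, plus strand) read 0.175, 0.333, 0.881 and 1.22 in the dendrite and 1.58, 0.330, 6.62 and 1.24 in the soma. Dync1i2 read 0, 0.0217, 0.414 and 0 in the dendrite and 2.22, 0, 2.65 and 4.51 in the soma. It was the dynein gene farthest to the soma side (log2 difference −1.37, SE 0.75, limma adjusted p = 0.65), with overlap only at the second home-cage soma library, where it was listed at 0. Dync1li2 (chr8:106941574-106966947, minus strand) read 0, 2.02, 0.759 and 0.675 in the dendrite and 0.319, 0, 1.65 and 14.3 in the soma, and Dync1i1, the neuronal intermediate chain, stayed at or below 0.151 in the dendrite and at 0 to 1.55 in the soma.

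The LC8 light chains are small dimer hubs that bind dynein, myosin V and many other partners. Their coding sequences have 270 bases each and are 81.1% identical. The first 30 bases are shown because they tell these 2 similar small genes apart; capitals mark the bases that differ.
Dynll1: atgtGCgaccggaaggcGgtgatcaaAaaT
Dynll2: atgtCTgaccggaaggcAgtgatcaaGaaC
Dynll1 (chr5:115747119-115750999, minus strand) read 0, 2.08, 4.05 and 0.340 in the dendrite and 0, 1.94, 0.371 and 15.7 in the soma immunoprecipitates. Dynll2 (chr11:87793027-87811800, minus strand) read 1.35, 1.88, 2.16 and 0.840 in the dendrite and 0.323, 32.5, 1.84 and 2.61 in the soma. Neither separated the compartments. The highest soma library was the second fear-conditioned one for Dynll1 and the second home-cage one for Dynll2, where the deposited Dynll2 value was 8.68 before division by the scale factor of 0.267. In the single-end run both genes were highest in the second fear-conditioned soma library, at 73.5 FPKM for Dynll1 and 35.4 for Dynll2, and Dynll2 read 3.73 in the second home-cage one.

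Dynactin joins dynein to cargo and to the microtubule; Dctn1 is its large p150-Glued subunit, and Dctn4, Dctn5 and Dctn6 sit at its pointed end. Dctn1 read 0.347, 1.74, 0.386 and 0.574 in the dendrite and 3.14, 0.373, 0.860 and 1.05 in the soma. Dctn5 read 0.241, 0.207, 0.271 and 0 in the dendrite and 0.178, 0, 2.27 and 6.10 in the soma, where the 2 fear-conditioned libraries were the high ones. Dctn4 ranged from 0 to 0.845 in the dendrite and from 0 to 2.29 in the soma, and Dctn6 was above 0 in 3 libraries, led by 4.22 in the second fear-conditioned dendrite.

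Among myosins, Myo5a (chr9:74919013-75071494, plus strand), which hauls endoplasmic reticulum and RNA granules into spines, read 0.0979, 1.20, 1.15 and 1.79 in the dendrite and 2.22, 8.61, 9.27 and 1.42 in the soma. It was the member farthest to the soma side (log2 difference −1.43, SE 0.92, limma adjusted p = 0.65), and 1 soma library lay below the highest dendrite library. Myo6 (chr9:80012841-80159536, plus strand), a minus-end myosin that takes part in AMPA receptor uptake, read 0.166, 20, 0.883 and 0.391 in the dendrite and 0.0558, 0, 0.497 and 0.389 in the soma. Its dendrite mean rests on the second home-cage library. Myo9a, a class IX myosin, read 0.0539, 20.2, 0.360 and 0.755 in the dendrite and 0.05, 1.21, 5.43 and 2.84 in the soma, and its high dendrite value came from that same library.

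Myo18a, a Golgi-associated myosin, read 1.11, 2.15 and 9.17 in 3 dendrite libraries and below 0.001 in the first, against 0.533, 0, 2.11 and 0.140 in the soma. Myo10, a motor of filopodia, read 0, 0.164, 1.32 and 0.119 in the dendrite and 0.883, 0.106, 1.85 and 0.585 in the soma. Myo5b, which brings recycling endosomes to spines during long-term potentiation, reached 1.47 in the second home-cage dendrite and 1.34 in the first home-cage soma and stayed below 0.1 in the other 6 libraries. Its symbol has models on 2 chromosomes in the deposited annotation, so its value is uncertain. Myo1c and Myo5c reached at most 1.23 and 1.42, each in 1 soma library. None of these 5 myosins separated the compartments.

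The second question was what fear conditioning did in each compartment, with 2 libraries against 2. In the dendrite immunoprecipitates 0 of 23 members were called by limma (background: 0% of 2928 genes), and 1 was at an unadjusted p under 0.05 (background: 3.28%, and 1.33% with a lower value after conditioning). Of the 23, 8 had a log2 difference above 0 and 14 below (background above 0: 56.7%), whereas without scaling between libraries 14 lay above and 8 below. The one member at that p was Kif5a, at 26.2 and 10.3 in the home cage and 1.81 and 1.01 after conditioning (log2 difference −2.88, SE 1.21, limma adjusted p = 0.944). Kifc2, at 49.8 and 7.16 against 1.99 and 3.21, also had both conditioned libraries below both home-cage ones (log2 difference −2.52). In the rest of the 3′ UTR Kifc2 turned to 0.88 and Kif5a came to −0.25, and Kif5a was at −0.77 in the single-end run. Without the first home-cage dendrite library Kifc2 was at −1.25. These 2 of 23 members compare with a background of 8.61% of genes that did not overlap in that direction. Myo18a, Dync1h1 and Kif2a had both conditioned libraries above both home-cage ones, 3 of 23 against a background of 24.5%, and Myo18a had the largest difference of the 3 (log2 1.96). In the single-end run of these libraries, taken as deposited without scaling, the sides of Kifc2, Myo18a and Dync1h1 were again free of overlap. Those of Kif5a and Kif2a were not. Free of overlap in both runs were thus 2 of 23 members on the higher side (11.8% of all genes) and 1 of 23 on the lower side (1.98% of all genes).

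In the soma immunoprecipitates fear conditioning again gave 0 of 23 members called (limma; background: 0%), and 0 of 23 at an unadjusted p under 0.05 (background: 7.41%). Even so, 10 of the 23 members had both conditioned libraries above both home-cage ones, where 33.4% of all genes tested did, and 0 had both below (background: 7.99%). In 15 of the 23 the log2 difference was above 0 (background: 61.9%), and in 20 without scaling between libraries. The 10 span the classes: the kinesins Kif1b, Kif5a, Kif5b and Kif5c, the kinesin-2 subunit Kifap3, the dynein subunits Dync1li2 and Dync1i2, the dynactin subunit Dctn5, and the myosins Myo6 and Myo9a. Some reached the minimum mean only through the conditioned soma libraries, so the filter itself favoured this side, in members and background alike. Dctn5 read 2.27 and 6.10 there and at most 0.271 elsewhere. Kifap3 read 13.4 in 1 of them and at most 1.02 outside that group. Kif1b had the largest log2 difference, 3.18 (SE 1.47, limma adjusted p = 0.568), followed by Dync1li2 at 2.47, Kifap3 at 2.23, Dctn5 at 2.15 and Kif5c at 2.13. In the rest of the 3′ UTR the differences of Kif1b and Dctn5 were −0.073 and 0.087, and those of Dync1li2 and Kif5c were 2.49 and 1.98. With a pseudocount of 5 these 5 differences fell to between 0.81 and 1.66, and with 0.1 they rose to between 4.13 and 4.67. For Kif1b this was 0.710 and 0.160 in the home cage against 21.4 and 6.24 after conditioning. All 10 were also free of overlap in the single-end run, as were 24.1% of all genes in both runs. Single-end FPKM were taken here as deposited, without scaling between libraries. In the paired-end run, leaving out the scaling raised the count on this side from 10 to 14 of 23.

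Marker levels differed between the same soma libraries. Before scaling, pyramidal neuron markers summed to 19.5 and 5.96 FPKM in the home-cage libraries, the second of which is the one dominated by Rpsa, and to 61.7 and 279 in the fear-conditioned ones. In the scaled fit 5 of 5 tested pyramidal markers, 4 of 4 interneuron markers, 3 of 4 oligodendrocyte markers and 3 of 7 astrocyte markers were on the conditioned side. Before scaling 9 and 4 motor members were at or above 1 FPKM in the home-cage libraries, against 26 and 29. The share of these differences in the motor values was not tested.

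The difference between the 2 effects was tested as an interaction. No member was called (limma, 0 of 23; background: 0%), and 2 were at an unadjusted p under 0.05 (background: 3.48%, and 2.53% in their direction). They were Kif1b (log2 −5.01, SE 2.08) and Kif5a (log2 −3.80, SE 1.71), both with a limma adjusted p of 0.716. In both genes the conditioned libraries were lower in mean in the dendrite and higher in the soma.

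**Figure D4:**
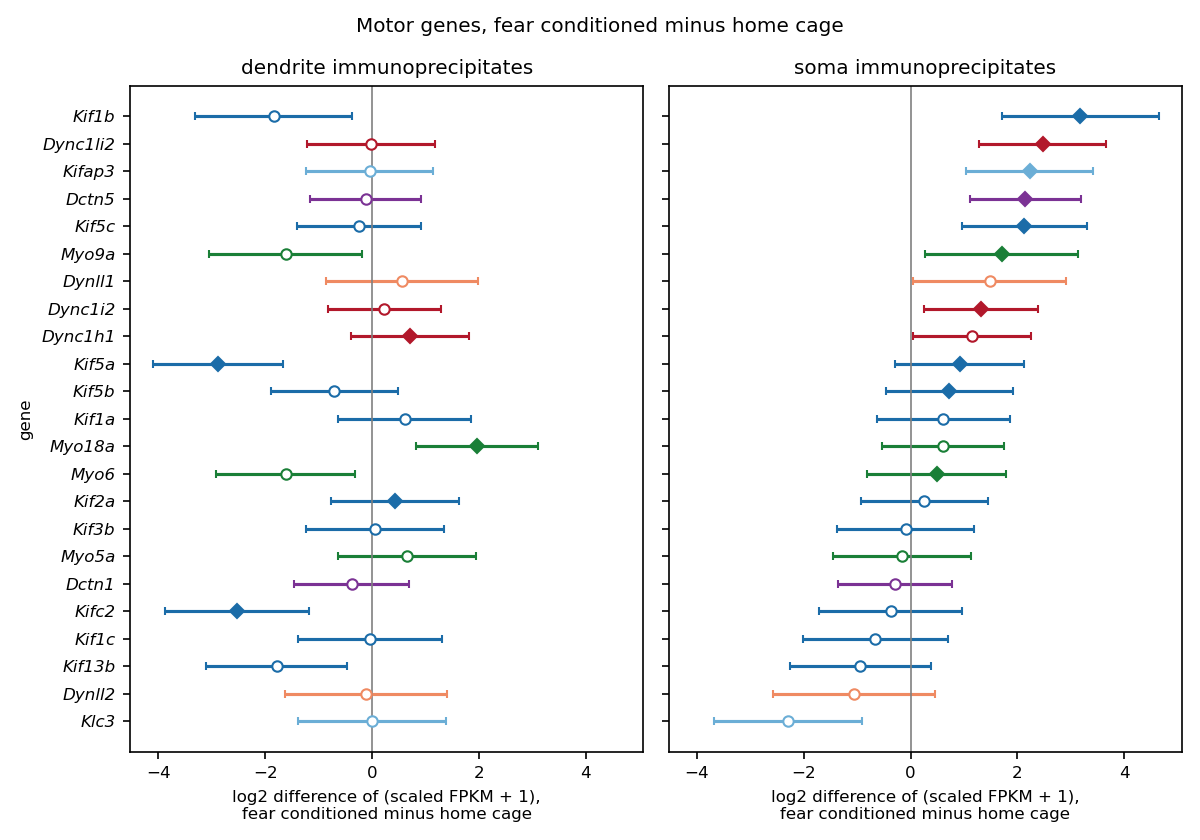
Log2 difference (point) and SE (bar) of fear conditioned minus home cage for the 23 tested motor genes, in the dendrite (left) and the soma immunoprecipitates (right), in one gene order; filled diamonds mark genes whose 2 conditioned libraries did not overlap the 2 home-cage ones. There are 10 diamonds to the right of 0 in the soma, led by Kif1b at 3.18, and in the dendrite Kif5a and Kifc2 lie at −2.88 and −2.52.

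The supernatants, the RNA left after the tagged ribosomes were removed, gave 2 libraries from the dendrite layer and 1 from the soma layer. In the limma fit on all 11 libraries, 0 of 23 members were called between the layers (background: 0% of 2938 genes), and 0 were at an unadjusted p under 0.05 (background: 1.06%). With a single soma library most genes fall on one side or the other: both dendrite libraries lay above the soma library for 8 members (background: 33.0%) and below it for 10 (background: 38.5%). The deposited values of both runs were therefore read side by side. Of 22 members with a mean of at least 1 FPKM in the supernatants of both runs, 8 were higher in both dendrite libraries in both runs (40.6% of all genes at that level) and 5 were higher in the soma library in both runs (10.6% of all genes).

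On the dendrite side in deposited values were the kinesins Kif1a, Kif1c, Kif5a, Kif5c and Kifc2, the dynein heavy chain Dync1h1, and the myosins Myo6 and Myo10. After scaling, paired-end Dync1h1 overlapped, at 1.22 and 0.973 in the dendrite against 1.05 in the soma. Kifc2 stayed free of overlap after scaling, but its log2 difference in the fit was only 0.025. Kif5a had 8.09 FPKM in the home-cage and 10.6 in the fear-conditioned dendrite library against 4.92 in the soma in the paired-end run, and 41.2 and 49.5 against 11.5 in the single-end run. Kifc2 had 7.64 and 6.41 against 2.63, and 12.7 and 13.0 against 4.03. Myo6 showed the widest gap of these, 2.28 and 5.97 against 0.104 and then 5.36 and 6.79 against 0.443. In the rest of the 3′ UTR Kif5a, Kifc2, Myo6 and Myo10 were again on the dendrite side in both runs. They were 4 of 16 members with a mean of at least 1 FPKM there in both runs, against 28.4% of all genes. Kif5c turned to the soma side in the rest of the 3′ UTR of the paired-end run, at 8.25 and 4.57 against 8.66 FPKM.

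On the soma side were Dynll1, Kifap3, Klc2, Dctn1 and Myo5a. Dynll1 had 3.17 and 3.16 FPKM in the dendrite libraries against 27.6 in the soma library in the paired-end run and 9.36 and 10.2 against 23.8 in the single-end run. Klc2 had 0.936 and 0.471 against 5.44, and 1.37 and 3.77 against 7.91. Kifap3 had 1.06 and 0.999 against 4.33, and 2.16 and 0.149 against 3.35. Kifap3, Klc2 and Myo5a kept the soma side in the rest of the 3′ UTR in both runs, 3 of 16 members against 18.0% of all genes.

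Kif17 was above 1 FPKM in the soma supernatant only, at 1.42, with 0.0108 and 0 in the dendrite supernatants, but it read 0.0550 there in the single-end run. Glial RNA separated the layers as well: all 9 tested astrocyte markers and all 6 tested oligodendrocyte markers were higher in both dendrite supernatants, and astrocyte markers summed to 287 and 356 FPKM there against 17.8 in the soma. The part of glial cells in the 8 dendrite-side motor genes was not tested.

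**Figure D5:**
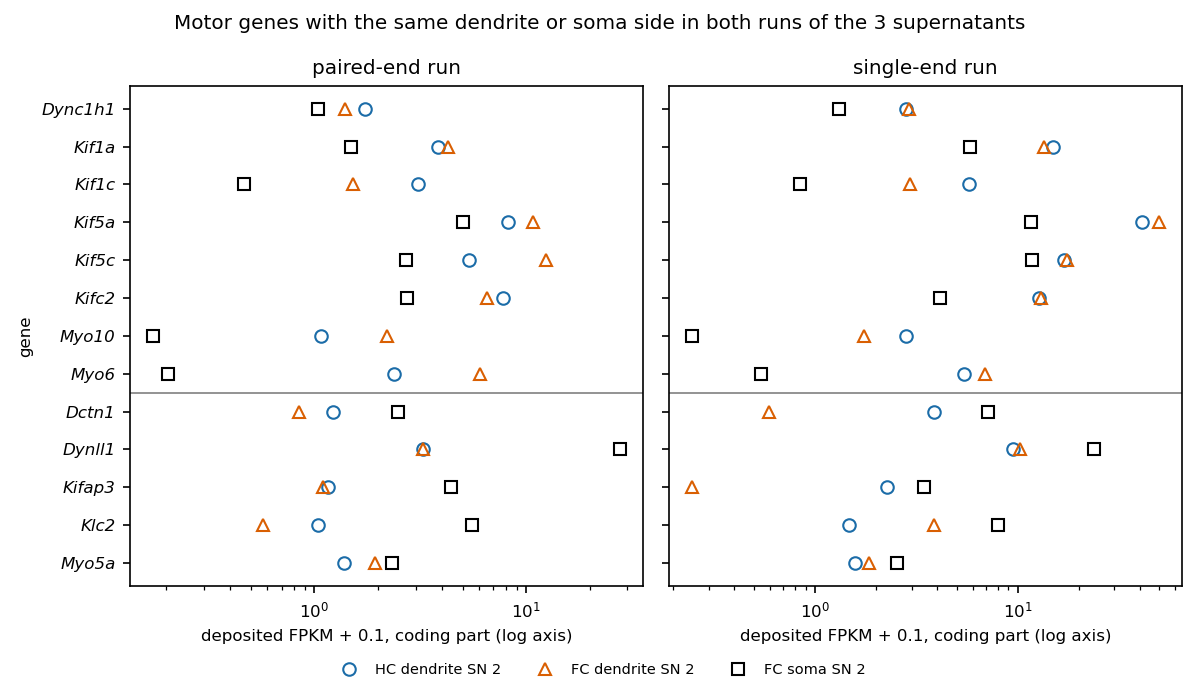
Deposited FPKM plus 0.1 of the coding part (log axis) for the 13 motor genes whose 2 dendrite supernatants (circle, triangle) both lay on the same side of the soma supernatant (square) in the paired-end (left) and the single-end run (right). The 8 genes above the grey line are higher in dendrite, with the widest gaps in Myo6 and Myo10, and the 5 below it are higher in soma, where Dynll1 reaches 27.6 FPKM.

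Bound RNA was then set against unbound RNA of the same layer. In the dendrite 0 of 23 members were called (limma; background: 0.0681% of 2938 genes) and 0 were at an unadjusted p under 0.05 (background: 4.36%). None had all 4 immunoprecipitates above both supernatants (background: 4.39%), and 4 had all of them below (background: 18.0%): Kif1a, Dctn5, Dynll2 and Kif3b. Kif3b, partner of Kif3a in kinesin-2, lies outside the rule for named genes and is given because the count includes it. On the scale of the 11 libraries Kif1a read 0.0645, 1.28, 2.04 and 1.01 in the immunoprecipitates and 2.77 and 3.13 in the supernatants. Dynll2 read 1.53, 1.71, 2.25 and 0.833 against 5.34 and 3.26. Their libraries were apart, yet the 2 log2 differences were only −1.01 and −1.04.

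In the soma 0 of 23 members were called (limma; background: 0%), and 0 were at an unadjusted p under 0.05 (background: 0.953%). All 4 immunoprecipitates lay below the 1 supernatant for Dynll1, Kif5a, Kifc2 and Klc2, 4 of 23 against a background of 17.4%, and above it for 0 (background: 5.51%). Dynll1 had the largest log2 difference (−3.12, SE 1.55, limma adjusted p = 1.00), with 0, 2.45, 0.337 and 12.8 in the immunoprecipitates and 30.8 in the supernatant. Kif5a reached at most 1.23 in the immunoprecipitates against 5.48 in the supernatant, and Kifc2 at most 2.14 against 2.93. Kifc2 went the other way in 1 library of the single-end run, with 17.2 deposited FPKM in the first fear-conditioned soma immunoprecipitate against 4.03 in the supernatant.

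The 2 parts of the transcript were also set side by side. In the paired-end run the rest of the 3′ UTR of Kif5a was 1.38 to 3.71 log2 units above its coding part in the 8 libraries where both reached 1 FPKM, at the 70.2nd to 96.9th percentile of all genes in the same library. Kif1a gave 1.31 to 4.29. In the single-end run of the same libraries the Kif5a ratio was −0.40 to 1.54. The 3′ excess of Kif5a and Kif1a was therefore present in 1 run, in libraries where both parts reached 1 FPKM, and mostly missing in the other.

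Other genes of motor transport were described from lists of adaptors and partners. Of 32 motor adaptors, such as the mitochondrial adaptor Trak1 and the dynein regulator Pafah1b1, 10 could be tested between dendrite and soma immunoprecipitates: 5 were on either side, 0 were called (limma), and the median log2 difference was −0.023. Of 14 further dynein and dynactin subunits 5 were tested, 2 on the dendrite and 3 on the soma side, with 0 called. Of 23 tubulins and microtubule-associated proteins, the tracks of kinesin and dynein, 12 were tested, 2 on the dendrite and 10 on the soma side, with 0 called and a median of −0.36, beside −0.30 for all genes.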

How the data were processed

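Per the labels' protocols, RNA was amplified (Nugen Ovation), treated with a single-strand nuclease and made into TruSeq libraries. Tools named without order or settings are STAR 2.1.1d, Cufflinks 2.0.2 and CASAVA 1.9, with build mm9, per the submitters' processing notes. The authors deposited FPKM values in 2 tables, 1 per sequencing run, with columns by library and transcript part, per the file headers. Of the annotation they deposited, mm9 coordinates, strands and lengths were used; it keeps 201 bases of the 3′ UTR in the coding part for 86.8% of models with both parts. Strand use in counting: not given in the sources used here.

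Members and gene lists were chosen with earlier results of these data known. FPKM were divided by the median ratio to the geometric mean over genes above 0 in all libraries (870 genes for 8 immunoprecipitates, 765 for 11 libraries), and log2(scaled FPKM + 1) was tested with limma 3.58.1 (R 4.3.3, trended empirical Bayes, Benjamini-Hochberg over all genes whose scaled FPKM averaged 1 or more, threshold 0.05). A log2 difference on this scale understates the change of genes of low level. The minimum was taken over the same libraries that were compared, so a gene could pass it through the group where it was high. The immunoprecipitate fit had 4 groups; the 11-library fit had layer, fraction and behaviour. FPKM are not counts, so no count test was run; fragment numbers are estimates from the spacing of low values, of which 88.8 to 96.4% lay within 0.15 of a whole read. Named are the highest 4 members of each class (8 for kinesin heavy chains and myosins) by mean deposited FPKM, a fixed list of dendritic motors, and up to 4 members each way whose libraries did not overlap. The fit was also run on simulated data with known changes. Its outcome is not given here, so a lack of calls does not show that no difference exists. P-loops were searched in GENCODE M21 coding sequences; 86 of 87 members matched by symbol. Some items are not reported here. Alternatives were 2 other pseudocounts, other expression minimums, no scaling, the single-end run, the rest of the 3′ UTR, a replicate block and leaving out each library.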

Additional observations from a re-analysis of the deposited data

Results flagged for a closer look

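Of 46 groups of 4 immunoprecipitates checked (23 members, dendrite and soma), 8 had 1 library set apart from the other 3, its gap to the nearest of them, as a share of the group's range, being above Dixon's critical value for 4 samples. Chance alone marks about 1 in 20 groups. The share of flagged groups among all genes tested is not given, so the 8 cannot be called particular to motors. Unevenness was general: 1 library held most of the summed immunoprecipitate FPKM for 2435 of 3456 genes with a mean of at least 1 FPKM. Among members at that level this held for 17 of 28. The gaps were taken on log2(scaled FPKM + 1). Values below are scaled paired-end FPKM of the coding part unless the single-end run is named.

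Kif13b stood apart in the first home-cage library of both layers, at 13.0 in the dendrite, where the others reached at most 0.181, and at 2.73 in the soma, where the others reached at most 0.013. The deposited single-end value was 0.722 in that dendrite library, below 2.30 in the first fear-conditioned library, and 2.24 in that soma library, above the other soma libraries. Myo6 at 20 and Myo9a at 20.2 stood apart in the second home-cage dendrite library, where the other dendrite libraries reached 0.883 and 0.755. Myo6 was again highest there in the single-end run, at 16.0, and Myo9a was not, at 1.60 against 2.20 in the second fear-conditioned library. In the first fear-conditioned dendrite library Dync1i2 was at 0.414 and Kif2a at 0.771, with the others at or below 0.0217 and 0.0247. The single-end run listed Dync1i2 at 0 in that library, and Kif2a read 7.02, with the others at 0. Klc3 was at 23.1 in the second home-cage soma library, the library with 74.0% of its FPKM in Rpsa, and was listed at 0 in the other 3 soma libraries. Kif5b was at 1.37 in the second fear-conditioned soma library, with the others at or below 0.148; in the single-end run it read 3.06, below 3.17 in the first fear-conditioned one. No test of a cause was made for any of these values.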

How the results depend on the processing

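No motor gene was called in any comparison by limma, and this held with other pseudocounts, without scaling, with a higher expression minimum, in the single-end run, in the rest of the 3′ UTR and when each library was left out in turn (0 to 0 called in each comparison); without the fear-conditioned soma supernatant the 2 comparisons that need it could not be fitted. Without an expression minimum 4 members were called between the supernatant layers, 4 between bound and unbound dendrite RNA and 1 between bound and unbound soma RNA, out of 924, 376 and 935 genes called among 16618. They include Kif17, Kifc3, Myo1f and Myo3b, each below 1 in at least 10 of the 11 libraries. Signs turned for 4 log2 differences: in the rest of the 3′ UTR Kif1b after conditioning in the soma (−0.073), its interaction (1.498) and Kifc2 after conditioning in the dendrite (0.88), and in the single-end run Kif1c between dendrite and soma (−0.93). The cause was not tested. With the replicate number as a block 0 members were called in every comparison; dendrite and soma libraries of the same number did not deviate together (r = −0.00098 for the home-cage and 0.056 for the fear-conditioned pairs). Unscaled FPKM moved the median log2 difference of all genes from −0.30 to 0.12 between dendrite and soma and from 0.43 to 1.21 for conditioning in the soma, and 14 in place of 10 of the 23 members then had both conditioned soma libraries higher. The 2 runs under one library name, assumed to be of one library, agreed poorly. Of members at or above 1 FPKM in either run, 0% to 46.7% per immunoprecipitate and 19.4% to 43.3% per supernatant were within 2-fold.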

Other observations

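The kinesins of cell division serve the mitotic spindle and cytokinesis. Of the 13 in the list, 4 to 9 were above 0 in each paired-end immunoprecipitate, mostly at low levels, and 0 to 7 in a supernatant. Kif20b read 6.25 deposited FPKM in the first fear-conditioned dendrite library, with about 731 fragments, and at most 0.388 in the other 7. Kif23 read 4.67 in the second fear-conditioned soma library and Kif14 read 3.27 in the first fear-conditioned dendrite library. In the 3 supernatants the 13 summed to 0.41, 0 and 0.02 FPKM, against 0.51 to 12.6 in the immunoprecipitates. The single-end run did not keep the same genes: Kif15 read 70.5 there in the second fear-conditioned dendrite library, where the paired-end run gave 1.74, and Kif20b read 0.701 in the first.

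A few members were high in the fear-conditioned dendrite supernatant of the paired-end run and near 0 on tagged ribosomes. Of the class I myosins, which link membranes to actin, Myo1e read 5.10 there and at most 0.0734 in the immunoprecipitates, and Myo1d read 3.19 and at most 0.192. Dync2li1, a subunit of the dynein of cilia, read 3.47 there and at most 0.720 in the immunoprecipitates. The single-end run of that supernatant gave lower values, 0.171 for Myo1e, 0.734 for Myo1d and 0.672 for Dync2li1.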
